A study of Mus musculus with 2 samples.

Results

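Mir22 is a microRNA gene on mouse chromosome 11. It is 1 of the 2202 microRNA genes counted in a pair of libraries labelled as newborn muscle. It was taken as the row whose Ensembl identifier, ENSMUSG00000065529.1, carries the name Mir22 in GENCODE M21, and its reads on the sense strand were placed in the ranking of all microRNA genes. The gene was selected on its sense read counts and its place in that ranking, so its levels are a description and carry no test. Per the labels, the libraries came from gastrocnemius, a calf muscle, of male B6CASTF1/J pups aged 4 days, the F1 generation of a cross between C57BL/6 and CAST mice. No treatment, mutation or second condition is labelled. The 2 libraries form 1 group, are labelled biological replicates 2 and 1 (animals 4 and 3), and share a donor identifier.

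MicroRNAs are cut in steps from a hairpin in a longer transcript, and the mature strand guides Argonaute proteins to messenger RNAs that pair with its seed, the bases near its 5′ end. Mir22 gives a microRNA that is conserved among vertebrates and abundant in heart and skeletal muscle. In mouse hearts miR-22-3p, its main product there, is known to promote cardiomyocyte growth and to act on the histone deacetylase gene Hdac4, the deacetylase gene Sirt1 and the transcription regulator gene Purb.

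The sequences of the hairpin and of both arms are shown because reads were counted per gene, so that either arm could supply them. They are from RefSeq (GRCm38.p6), 5′ to 3′, on the plus strand at chr11:75463716-75463810. In the hairpin the capitals mark both annotated mature arms, and in the arms they mark the seed (bases 2 to 8).
Mir22 hairpin: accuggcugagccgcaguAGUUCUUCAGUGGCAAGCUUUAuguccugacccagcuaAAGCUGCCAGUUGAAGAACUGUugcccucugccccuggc
miR-22-5p: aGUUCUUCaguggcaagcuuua
miR-22-3p: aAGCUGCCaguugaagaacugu
The hairpin is 95 nt long, and 19 of the 22 bases of miR-22-3p paired with miR-22-5p in a structure predicted by RNAfold, with all 7 seed bases paired. Neither seed occurred at bases 2 to 8 of a mature sequence of any other gene among the 1738 mouse mature microRNAs of the table. A seed 1 letter away from that of miR-22-3p was carried by 4 mature microRNAs. Of their genes, Mir543 of the imprinted Dlk1-Dio3 domain counted 142 reads in replicate 2 and 9350 in replicate 1, while Mir1943, Mir6962 and Mir7085 had at most 8 reads in either library.

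Mir22 lies in an exon of its noncoding host gene Mir22hg (mm10 chromosome 11, 75461539 to 75466676, plus strand). The hairpin is inside exon 2 of both annotated transcripts, Mir22hg-202 (exon at 75463693 to 75463857) and Mir22hg-201 (75463693 to 75464029). One transcript of the protein-coding gene Tlcd2, Tlcd2-203, uses the exon at 75463693 to 75463857 too. Across all annotated transcripts of GENCODE M21, the arms of Mir22 were found in 1 gene beyond Mir22 and Mir22hg, and that gene was Tlcd2 at the same locus. The hairpin shared no stretch of 22 nt or of 18 nt with another annotated microRNA gene (0 genes at either length). No genome sequence was searched.

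**Figure D1:**
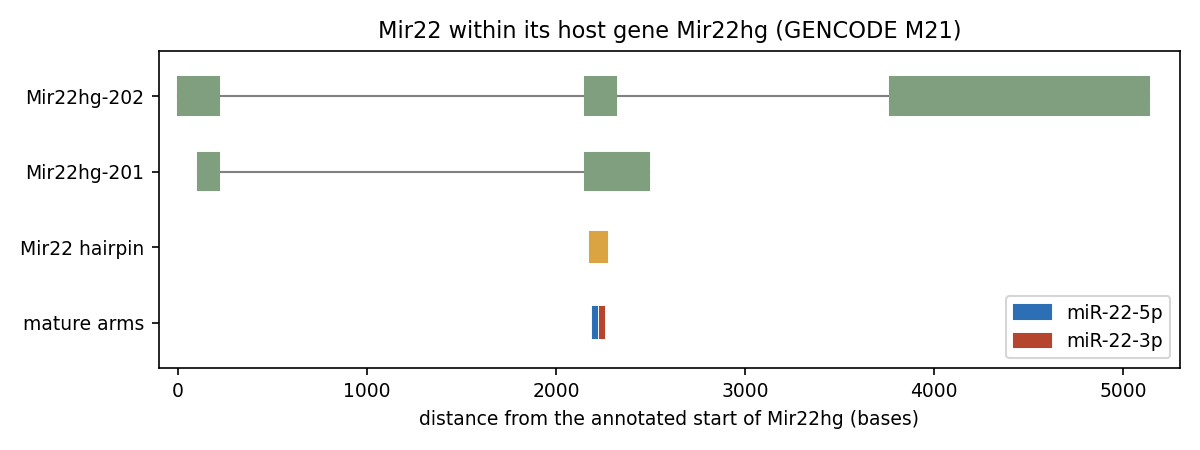
Map of Mir22 and the 2 annotated transcripts of Mir22hg, with distance in bases from the annotated start of Mir22hg. Boxes are exons, the hairpin or the mature arms, and the hairpin lies inside exon 2 of both transcripts.

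Before the levels are given, it has to be said that the pair of libraries differed far beyond Mir22. The library labelled replicate 2 held 7240126 reads, of which 3073086 were sense reads of microRNA genes, and that labelled replicate 1 held 8522350 reads, of which 4458853 were. The 9 skeletal muscle markers took 0.479% of the microRNA reads of replicate 2 and 14.7% of those of replicate 1. Mir206 alone took 0.00329% of replicate 2 and 14.6% of replicate 1, and the other 8 summed to 0.476% of replicate 2 and 0.0906% of replicate 1, so the list without Mir206 was higher in replicate 2. Of these 8, Mir499 took 0.281% and Mir208b 0.141% of replicate 2. Mir208b is hosted by the slow and cardiac myosin gene Myh7, so it does not mark skeletal muscle alone. Whether Mir499 and Mir486 mark skeletal muscle alone was not tested, so the higher sum is no measure of skeletal muscle content. Of the 8, 7 were tested (at least 10 reads in all). By the ratio defined further on, 3 of them were at least 2-fold higher in replicate 2, namely Mir208b, Mir499 and Mir486. Another 3 were at least 2-fold lower, namely Mir133b, Mir133a-1 and Mir1a-1. Over all tested genes 20.7% were higher and 37.8% lower. The heart-restricted Mir208a took 0.967% of replicate 2 and 0.00132% of replicate 1, so on Mir206 and Mir208a the library labelled replicate 2 went against its tissue label. The Dlk1-Dio3 domain (66 annotated genes) took 0.973% and 32.9%. Markers of endothelium (Mir126a, Mir126b) summed to 6.62% and 2.54%, of smooth muscle (Mir143, Mir145a) to 4.90% and 2.17%, of red blood cells to 0.0979% and 0.0220%, and of white blood cells (6 genes) to 0.429% and 0.0793%. Markers of fibroblasts summed to 0.281% and 0.591%, of neurons to 0.0299% and 0.108%, and of epithelium to 0.0587% and 0.0223%. Mir142b and all the Mir9 and Mir124a genes were at 0 in both libraries, and Mir199a-1 was at 0 in replicate 2.

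Mir22 was among the most abundant microRNAs of replicate 2 and lower in the ranking of replicate 1. It had 83121 reads in replicate 2 and 28376 in replicate 1. These were 2.70% of the sense microRNA reads of replicate 2 (exact Clopper-Pearson 95% interval 2.69 to 2.72%) and 0.636% of those of replicate 1 (0.629 to 0.644%). In CPM, counts scaled to the sense microRNA reads of each library, the levels were 27048 in replicate 2 and 6364 in replicate 1. The gene ranked at 11 in replicate 2 and at 31 in replicate 1, out of 2202. Ranks and shares leave out reads with several mapping places, which were 45.1% of all reads of replicate 2 and 35.7% of replicate 1. Genes with copies at other loci, such as Mir1a-2 (156 and 87 reads), may therefore rank too low, and the place of Mir22 beside them is uncertain. Over both libraries the share averaged 1.67% ± 1.46 (SD, n = 2), so the spread was nearly as large as the mean. In bulk tissue, fewer cells of a type and less RNA per cell cannot be told apart. The intervals cover counting error only.

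**Figure D2:**
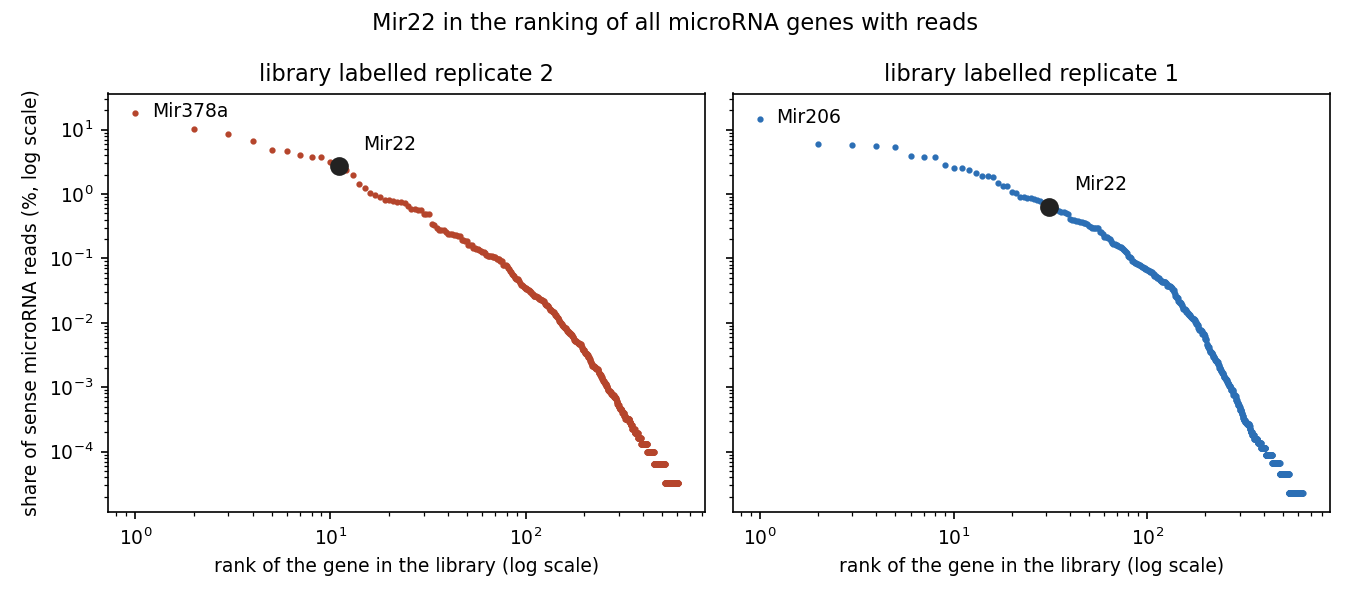
Share of sense microRNA reads (%, log scale) against the rank of each gene with reads (log scale), with replicate 2 on the left and replicate 1 on the right; each point is a gene. Mir22 (large black point) stood at rank 11 with 2.70% of replicate 2 and at rank 31 with 0.636% of replicate 1.

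All 10 genes with more reads than Mir22 in replicate 2 also had more in replicate 1, where 20 further genes stood ahead of it. Of the 10, 0 lay in the Dlk1-Dio3 domain. Of the 30 with more reads in replicate 1, 13 lay in that domain, and Mir206 was another. With the domain and Mir206 left out of the ranking, Mir22 ranked at 11 in replicate 2 and at 17 in replicate 1. Its share of the reads that remained was 2.73% in replicate 2 and 1.21% in replicate 1.

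The neighbours of Mir22 in the order of reads were set apart from it by more than counting error. In replicate 2 the 3 genes above it were Mirlet7b (116887 reads), Mir23b (115839) and Mir99a (97444), and the 3 below it were Mir26b (73808), Mir139 (59852) and Mir322 (44556). In replicate 1 those above were Mirlet7b (35150 reads), Mir540 (31944) and Mir337 (30932), and those below were Mir483 (27493), Mir130a (27047) and Mir214 (25804). None of the 95% counting intervals of these shares overlapped that of Mir22 in the same library. Mirlet7b was a close neighbour in both libraries. Mir540 and Mir337 are Dlk1-Dio3 genes, with 244 and 1195 reads in replicate 2.

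Ordered by mean share, Mir22 ranked at 18, and its neighbours could not be separated from it by the spread between the libraries. Mir322, a gene of an X-linked cluster linked to cell cycle exit, was just above it at 1.68% ± 0.320 (SD, n = 2). Mir26b was above that at 1.87% ± 0.745, and Mir431 was just below Mir22 at 1.41% ± 1.96. Mir139 came after Mir431 at 1.37% ± 0.811. All of these mean shares differed from that of Mir22 by less than 1 SD of Mir22.

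A log2 ratio of replicate 2 over replicate 1 was computed with effective library sizes by edgeR's TMM (trimmed mean of M values), since shares alone move when a few genes take many reads. Mir22 stood at 1.46, with a 95% counting interval of 1.44 to 1.48, or 2.75-fold higher in replicate 2. Of 410 genes with at least 10 reads in all, 85 (20.7%) were at least 2-fold higher in replicate 2, Mir22 among them, and 155 (37.8%) were at least 2-fold lower. With 1 library on each side, neither count rests on a test. Scaled by total sense microRNA reads instead of TMM, 146 genes were higher and 122 lower. The share of higher genes among those at least 2-fold apart was 35.4% with TMM and 54.5% with total sense microRNA reads. The median log2 ratio of all 410 genes was −0.33 with TMM and 0.63 higher with total sense microRNA reads. Mir22 exceeded that median by 1.79. A scaling moves every log2 ratio by the same amount, so this gap is the same under TMM, DESeq2 size factors and total sense microRNA reads by arithmetic. With other sets of genes it moved, to 1.41 without the Dlk1-Dio3 domain and Mir206 and to 2.00 with at least 100 reads.

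Among all 410 genes, 54 had a higher log2 ratio than Mir22, but few of them were abundant. Of 86 genes with a mean share of at least 0.1%, 7 had a higher ratio, namely Mir208a, Mir34a, Mir107, Mir499, Mir15b, Mir497 and Mirlet7b. Of the 20 genes with a mean share of at least 1%, only Mirlet7b did. These orders do not change with a scaling of the libraries. The cutoffs on mean share use the same counts as the ratio, however. Mir22 was above 1% in replicate 2 (2.70%) and below it in replicate 1 (0.636%), while Mir206 was the reverse (0.00329% and 14.6%). The cutoffs thus partly fix which genes Mir22 is ordered against. The higher Mir22 level stood in the library with 0.967% of Mir208a and 0.00329% of Mir206, and the part of tissue content in the difference was not tested.

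Counted against other genes of the same library, Mir22 needs no scaling. Its reads were set against the other 19 of the 20 genes with the highest mean share. Mir22 had more reads per read of the other gene in replicate 2 for 18 of the 19 genes. The gain was at least 2-fold for 12, of which 7 were themselves at least 2-fold lower in replicate 2 by TMM. Each gain restates the gap between the log2 ratios of Mir22 and the other gene, so it adds nothing to the order above. The choice of genes by mean share uses the same counts, so the number of gains is partly fixed by it. The median gain was 2.39-fold. Against Mir378a, a metabolic microRNA that led replicate 2, Mir22 had 14.7 reads per 100 in replicate 2 and 11.6 per 100 in replicate 1, a gain of 1.27-fold. Against the endothelial Mir126a the gain was 1.63-fold. Against the smooth muscle gene Mir143 it had 56.8 reads per 100 in replicate 2 and 30.0 in replicate 1.

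The widest gap was to the muscle gene Mir206, against which Mir22 had 823 reads per read in replicate 2 and 0.0435 in replicate 1. Mirlet7b went the other way, with 71.1 Mir22 reads per 100 of its own in replicate 2 and 80.7 in replicate 1. Against Mir26b, whose own log2 ratio was 0.21, Mir22 had 113 reads per 100 in replicate 2 and 47.2 in replicate 1. The order of Mir22 and Mir26b was thus turned round between the libraries. The same held for Mir139, with 139 Mir22 reads per 100 in replicate 2 and 79.5 in replicate 1.

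**Figure D3:**
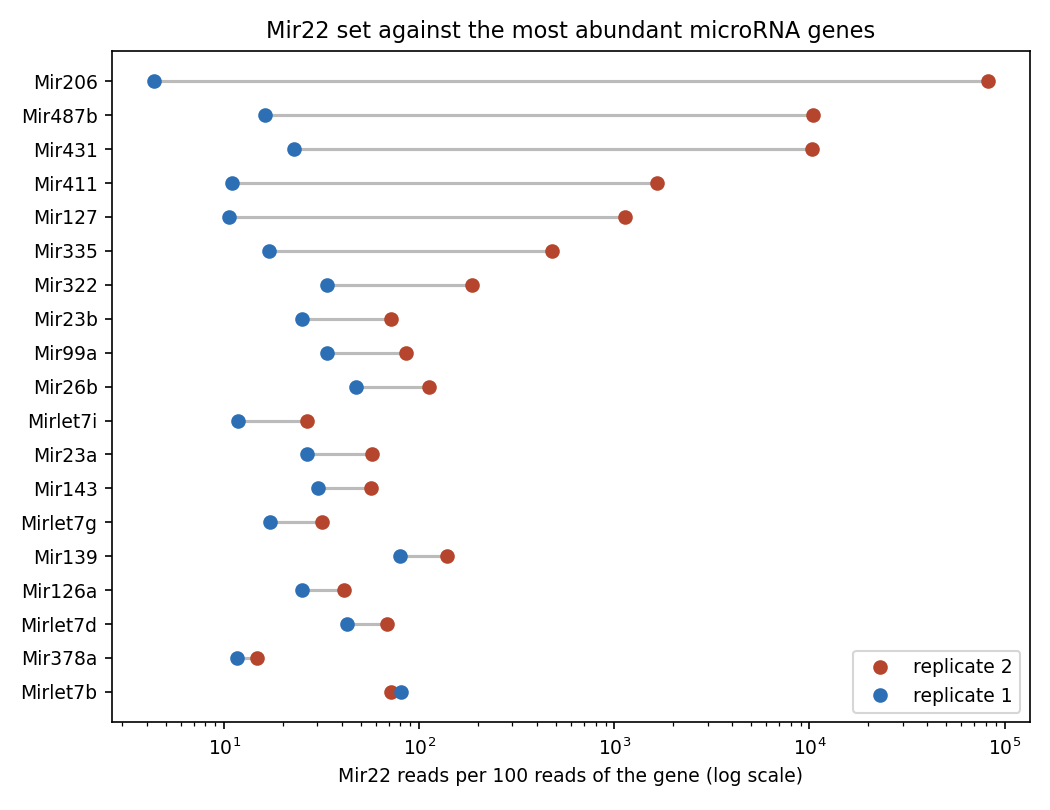
Mir22 reads per 100 reads of each of the other 19 most abundant genes (log scale) in replicate 2 (red) and replicate 1 (blue), with a line joining the pair. The red point lies to the right for 18 genes and to the left for Mirlet7b alone.

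The genes with a pattern most like Mir22 were found by Euclidean distance in log2 CPM over the 2 libraries, among all other counted genes. The measure weighs level as much as ratio, and with 2 libraries it says only that the levels were alike in both. The nearest was Mir139, in an intron of the phosphodiesterase gene Pde2a, at a distance of 0.58. It had 1.95% of the reads of replicate 2 and 0.800% of those of replicate 1. Mirlet7b, of the let-7 family, which is known to build up as cells differentiate, was at 0.58 too, with 3.80% and 0.788%. Mir26b, in an intron of the phosphatase gene Ctdsp1, was at 1.10 with 2.40% and 1.35%.

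Mir652, in an intron of Tmem164, was at 1.14 with 1.24% of replicate 2 and 0.544% of replicate 1, and Mirlet7d was at 1.35 with 3.98% and 1.49%. Of these 5 genes only Mirlet7b (log2 ratio 1.64) was at least 2-fold higher in replicate 2 by TMM, like Mir22. Mir139 stood at 0.66, Mir652 at 0.57, Mirlet7d at 0.79 and Mir26b at 0.21. With total sense microRNA reads Mir139, Mir652 and Mirlet7d passed 1, at 1.28, 1.19 and 1.41.

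The mature arms of the 5 genes are shown to set their seeds (capitals, bases 2 to 8) beside those of Mir22 above. Sequences are from RefSeq, GRCm38.p6.
miR-139-5p: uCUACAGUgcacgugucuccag
miR-139-3p: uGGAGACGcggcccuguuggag
let-7b-5p: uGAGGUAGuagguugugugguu
let-7b-3p: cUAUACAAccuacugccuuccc
miR-26b-5p: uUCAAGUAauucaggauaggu
miR-26b-3p: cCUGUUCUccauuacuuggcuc
miR-652-5p: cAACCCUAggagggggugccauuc
miR-652-3p: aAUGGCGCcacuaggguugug
let-7d-5p: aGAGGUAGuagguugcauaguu
let-7d-3p: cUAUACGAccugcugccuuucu
None of these 10 arms has a seed of Mir22, and only let-7b-5p and let-7d-5p share a seed with each other. The seed of let-7b-5p occurred in 12 other genes of the table.

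**Figure D4:**
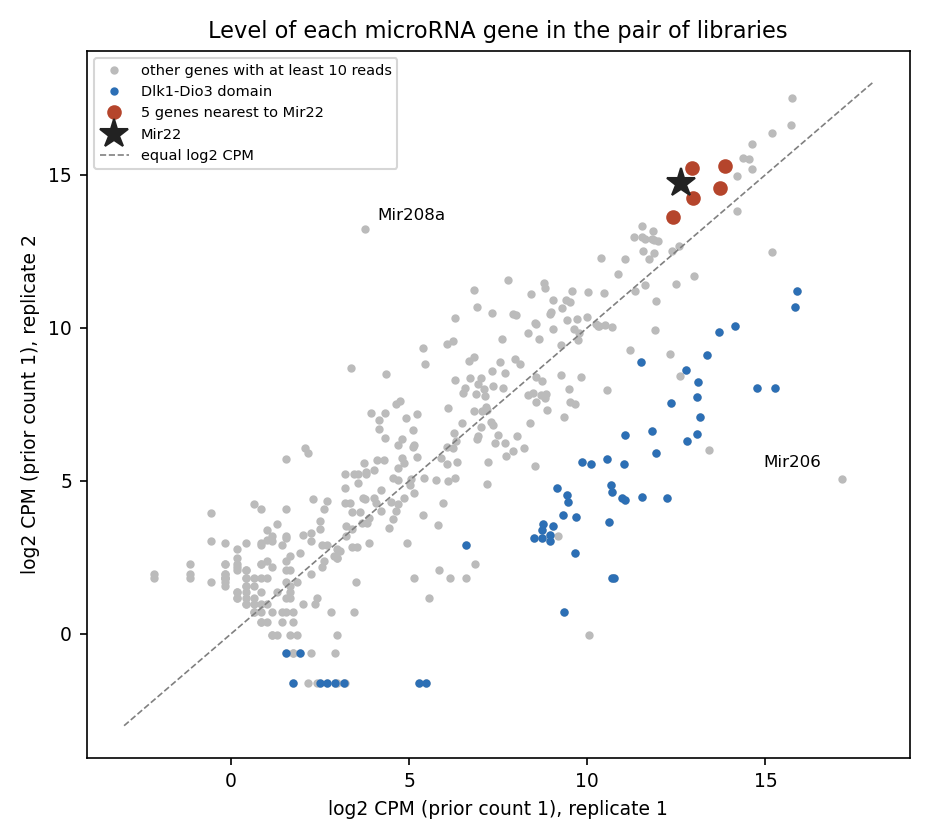
Log2 CPM (prior count 1) of each gene with at least 10 reads in replicate 2 (vertical) and replicate 1 (horizontal). Mir22 (star) and the 5 nearest genes (red) lie above the line of equal log2 CPM, while the genes of the Dlk1-Dio3 domain (blue) lie below it.

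On chromosome 11 the microRNA genes closest to Mir22 on the centromere side were Gm47300, Mir132 and Mir212, at distances of 145108, 289969 and 290238 bases. Mir132, known for a role in neurons and in cardiac growth, had 1616 reads in replicate 2 and 507 in replicate 1, at a log2 ratio of 1.58 (1.44 to 1.73). Mir212, of the same cluster, had 61 and 28 reads and stood at 1.01 (0.37 to 1.73). On the other side were Mir3971, Mir423 and Mir144, at 87619, 1614254 and 2609195 bases. Mir423 had 5937 and 2998 reads and stood at 0.90 (0.83 to 0.96). Mir144, an erythroid gene, had 593 and 119 reads and stood at 2.22 (1.94 to 2.52).

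Gm47300 and Mir3971 had 0 reads in both libraries, which allows up to 0.976 CPM in replicate 2 and 0.673 CPM in replicate 1 (3 counts in each library). All 4 neighbours with reads were thus higher in replicate 2, with Mir423 under 2-fold. Of the 34 tested genes of the chromosome, 11 were at least 2-fold higher (32.4%, against 20.7% of all genes). Another 9 were at least 2-fold lower (26.5%, against 37.8%), and the median log2 ratio was 0.07, against −0.33 over all 410 genes. The 410 genes include 55 of the Dlk1-Dio3 domain, all at least 2-fold lower and none on chromosome 11. The values over all genes are thus no like background for the chromosome.

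Mir22 is 1 of 38 tested genes that lie within an exon of a noncoding host outside the Dlk1-Dio3 domain. It held the rank of 3 by reads within that class in both libraries, behind Mirlet7d and Mirlet7b, and the rank of 6 by log2 ratio. In the class 7 genes were at least 2-fold higher in replicate 2 (18.4%, against 20.7% of all genes) and 10 at least 2-fold lower (26.3%, against 37.8%), with a median log2 ratio of −0.14. The share of higher genes in the class was thus near that of all genes. All 55 tested Dlk1-Dio3 genes were lower, and they count among all genes, so 37.8% is no like background for the lower share. With its Dlk1-Dio3 genes kept, the class had 43 tested genes, 7 higher (16.3%) and 15 lower (34.9%). Class members with higher ratios than Mir22 were Mir215 (3.53), Mir30c-2 (3.32), the white blood cell gene Mir155 (3.15), Mir31 (2.67) and Mirlet7b (1.64). The class thus held genes at both ends of the range, with Mir133b, a muscle gene, at −5.37.

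A list of 34 microRNA genes with a known role in growth of heart or skeletal muscle was counted, Mir22 among them. Each gene was put on a promoting or a restraining side. All were annotated and 30 had at least 10 reads in all. Of these, 9 were at least 2-fold higher in replicate 2 (30.0%, against 20.7% of all genes) and 11 at least 2-fold lower (36.7%, against 37.8%). Mir22, chosen with its ratio known, is among the 9 and so adds to the 30.0%. The median log2 ratio was 0.25, against −0.33 over all genes. No Dlk1-Dio3 gene is on the list, while all genes include 55 tested ones, all at least 2-fold lower. For the list and both its sides, values over all genes are thus no like background. The list held 31.8% of replicate 2 and 26.6% of replicate 1. The roles differ between heart and skeletal muscle, and many of the list's genes also mark one of these tissues. The side given to a gene was not tested here. A gene on the promoting side, such as Mir378a, may act otherwise in 1 of the tissues. Mir378a alone held 18.4% of replicate 2 and 5.50% of replicate 1.

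Of 17 tested genes on the promoting side, 8 were higher (47.1%, against 20.7% of all genes), Mir22 among them. Another 6 were lower (35.3%, against 37.8%), and the median log2 ratio was 0.99, against −0.33. Mir208a, in an intron of the cardiac myosin gene Myh6, counted 29718 reads in replicate 2 and 59 in replicate 1, which puts its log2 ratio at 8.86 (8.52 to 9.28). The myosin gene Myh7b carries Mir499, which counted 8633 reads in replicate 2 and 1953 in replicate 1 and stood at 2.05. Mir208b, hosted by the slow and cardiac myosin gene Myh7, counted 4340 and 1068 reads and stood at 1.93. Mir486, hosted by the ankyrin gene Ank1, counted 1468 and 456 reads and stood at 1.59. Mir132, Mir378a (1.12) and Mir212 were the other higher genes, and Mir195a was just under at 0.99, passing 1 with DESeq2 size factors (1.08) and total sense microRNA reads (1.61).

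The proportion of Mir22 to the microRNAs of muscle host genes differed less than 2-fold between the libraries for Mir208b, Mir499 and Mir486, and far more for Mir208a. Mir22 had 19.2 reads per read of Mir208b in replicate 2 and 26.6 in replicate 1, and 9.63 and 14.5 per read of Mir499. Per read of Mir486 it had 56.6 and 62.2. Per read of Mir208a it had 2.80 in replicate 2 and 481 in replicate 1. Mir22 was therefore more abundant than each of these 4 muscle or heart microRNAs in both libraries.

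The lower genes on the promoting side were Mir206 (−12.73), Mir199a-2 (−4.38), Mir199b (−2.32), Mir214 (−1.68), Mir21a (−1.67) and Mir19a (−1.47). For Mir206 the counts were 101 reads in replicate 2 and 652657 reads in replicate 1. Mir21a, known in cardiac fibroblasts, had 5807 and 17340 reads. Mir214, also a fibroblast marker here, had 8555 and 25804 reads. Mir19a had 4 and 12 reads and its interval of −3.76 to 0.05 included 0. Mir23a, which promotes cardiac growth in mice, stood at 0.35 and Mir27b at 0.32.

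On the restraining side 1 of 13 tested genes was higher (7.69%, against 20.7% of all genes) and 5 were lower (38.5%, against 37.8%), with a median log2 ratio of −0.09. The share of lower genes was thus that of all genes to within 1 gene. Mir29a, a repressor of collagen genes, was the higher one, with 2316 and 336 reads and a log2 ratio of 2.69 (2.53 to 2.86). Mir133b stood at −5.37, with 10 reads in replicate 2 and 427 in replicate 1. Mir26a-1, Mir133a-1, Mir1a-1 and Mir26a-2 were the other lower genes, with at most 65 reads in replicate 2 and 129 in replicate 1. The interval of Mir1a-1, −2.89 to 0.29, included 0. With total sense microRNA reads Mir133a-1, Mir1a-1 and Mir26a-2 stood at −0.50, −0.46 and −0.44. Mir26b, Mir30a and Mir98 stood at 0.21, −0.05 and −0.84.

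Of the 30 tested genes of the list, 10 share 22 nt with a microRNA gene at another locus, Mir1a-1, Mir1a-2 and Mir133a-1 among them, so that their counts are uncertain. Mir22 does not. Over the 20 tested genes without such a stretch, 9 were higher (45%, against 20.7% of all genes), Mir22 among them. Another 5 were lower (25%, against 37.8%), and the median log2 ratio was 0.67. Over the 10 that share such a stretch, 0 were higher (against 20.7%) and 6 lower (60%, against 37.8%), with a median of −1.08. The shares over all genes are no like background for either part, since they mix 71 tested genes with such a stretch and those without. Shares over like genes were not computed.

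**Figure D5:**
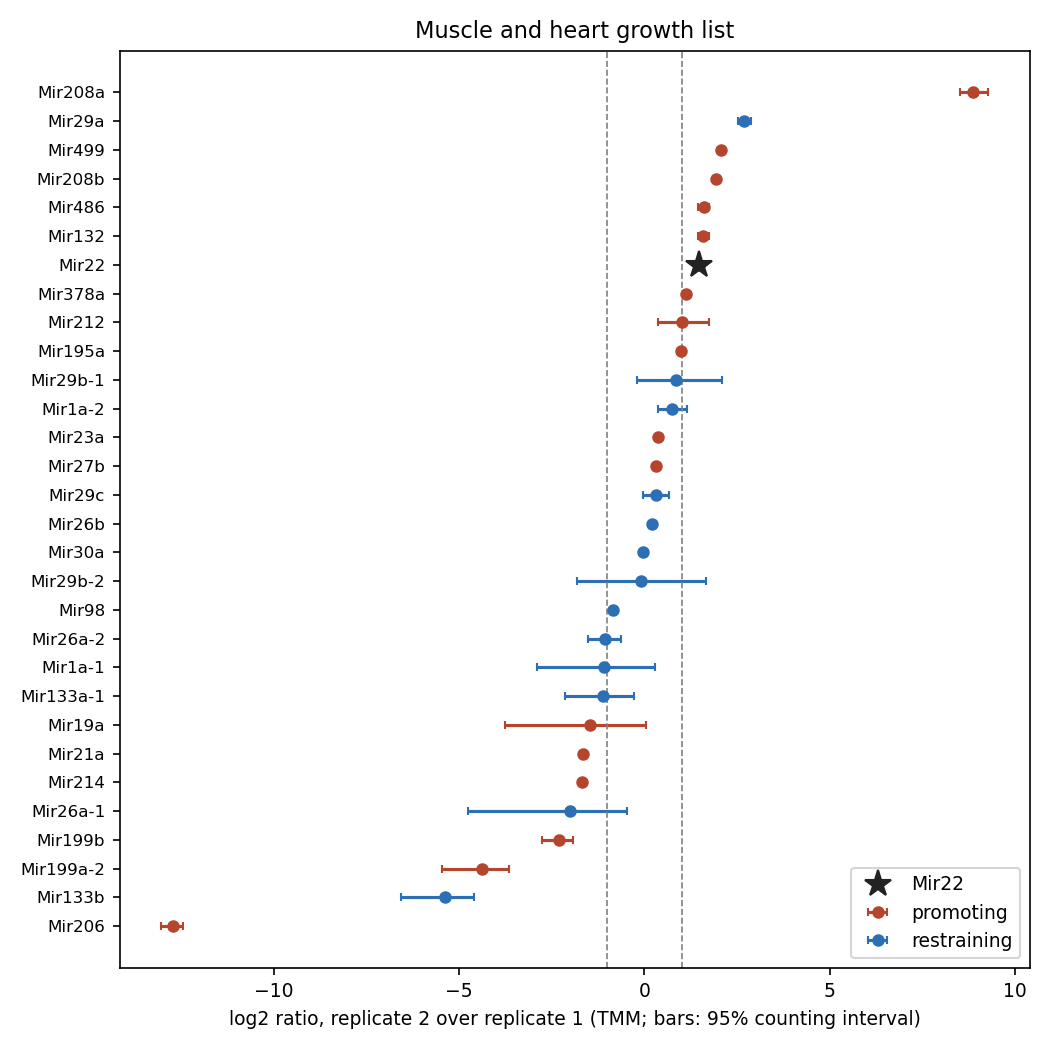
Log2 ratio of replicate 2 over replicate 1 (TMM) for the 30 tested genes of the growth list. Genes put on the promoting side are in red and those on the restraining side in blue. Bars are 95% counting intervals and dashed lines mark 2-fold. Mir22 (star, 1.46) stands below 6 genes, of which Mir208a is highest at 8.86, and Mir206 is lowest at −12.73.

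The strand of the reads was a readout that played no part in choosing the gene. Mir22 had 0 antisense reads beside 83121 sense reads in replicate 2, which allows a share of up to 0.00361% at 3 counts, and 0 beside 28376 in replicate 1, which allows up to 0.0106%. The unstranded column gave the same 83121 and 28376 reads. Over all 410 tested genes antisense reads made up 0.118% of stranded reads in replicate 2 and 1.27% in replicate 1. They were 0 for 388 and 383 genes, so the absence of antisense reads was the common state.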

How the data were processed

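MicroRNA libraries with a labelled size range below 30 nt were made from total RNA. For every microRNA gene the authors deposited raw counts, unstranded, sense and antisense. The build is mm10 with GENCODE M21, per the deposited description files. The aligner is not given in the sources used here, nor are its settings or the trimming. The layout is that of STAR gene counts, which set reads with several mapping places aside. All 2202 identifiers matched GENCODE M21. The 4 summary lines stayed out of totals: unmapped, multimapping and unannotated reads were 8.60%, 45.1% and 3.83% of replicate 2, and 9.97%, 35.7% and 2.05% of replicate 1. In replicate 2 42.4% of reads, and in replicate 1 52.3%, were sense microRNA reads. Columns of other samples numbered 0.

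Sense counts were used. Log2 ratios had a prior count of 1 and TMM sizes (edgeR 4.0.16, R 4.3.3) from genes with at least 10 reads in both libraries together, and intervals are exact conditional binomial ones. Intervals and the limit that a count of 0 allows (3 counts) cover counting error only, since PCR reads are not independent molecules. No p-value was computed: there is 1 group of 2 libraries, and the gene and lists were chosen with earlier results of these data known. Genes named were Mir22, its 3 neighbours on each side by reads and by position, the 5 nearest by log2 CPM, the 20 with the highest mean share and the growth list; further genes, such as those above Mir22 in log2 ratio, near seeds, the mean-share neighbours and host-class examples, were chosen after their values were seen. Marker lists were skeletal muscle, heart, endothelium, smooth muscle, red and white blood cells, fibroblasts, neurons and epithelium; Mir142a was matched to Mir142 by its RefSeq synonym, and the skeletal list was also summed without Mir206, a choice made after seeing the data. Hosts are GENCODE M21 genes on the same strand. Hairpins were folded with RNAfold 2.7.2. The RefSeq mature table held entries for 371 of the 410 tested genes. The ratio was checked on simulated counts. Alternatives were DESeq2 1.42.0 size factors, total sense microRNA reads, other minimum counts, the unstranded column, omitted gene sets, a prior of 0.5 and each library alone. Other software was pandas 2.3.3, scipy 1.17.1, numpy 2.4.6 and Python 3.11.15.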

Additional observations from a re-analysis of the deposited data

How the results depend on the processing

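The log2 ratio of Mir22 was above 1 under every alternative run. It was 1.55 with DESeq2 size factors, 2.09 with total sense microRNA reads, 1.63 with the unstranded column and 1.31 without the Dlk1-Dio3 domain and Mir206, against 1.46. With TMM sizes taken from all genes with a read, or from genes with at least 100 reads, 2 alternatives chosen after seeing the data, it was 1.66 and 1.83. These moves follow from the scaling factor alone, since the reads of Mir22 were the same. Genes at least 2-fold higher numbered 146 with total sense microRNA reads and 202 with no minimum count (85 as reported), and genes at least 2-fold lower 98 with at least 100 reads (155). The growth list's median log2 ratio was 0.88 with total sense microRNA reads, 0.70 with at least 100 reads and 0.12 with the unstranded column (0.25). The list's count of higher members ran from 9 to 12. Each library alone gave a Mir22 share of 0.636% to 2.70%, a rank of 11 to 31 and an antisense share of 0. Other alternatives kept each value within its spread or within 1.5-fold. No paired analysis was possible because there is a single group. With 2 libraries, no difference between animals, tissues or preparations can be told apart.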
